A study of Mus musculus with 42 samples.

Results

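Malat1 and Neat1 are long noncoding RNAs that stay in the nucleus and lie next to each other in the genome. The polyadenylation sites (PASs) of both were followed in every 3′READS library of the series. 3′READS sequences the 3′ ends of polyadenylated RNA, and each read marks the end of 1 transcript. The members were all PASs inside the span of either gene, or up to 1 kb past its end, on the gene's strand. They came to 197 of 83916 PAS clusters, 71 of Malat1 and 126 of Neat1, from 2 of the 14924 genes that had a PAS.

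The cells were mouse NIH3T3 fibroblasts and C2C12 cells, and all 42 libraries, 38 of them 3′READS, carry the strain label C57BL/6. NIH3T3 cells were left untreated (NT), given sodium arsenite at 250 µM over 1 h (AS), or treated and then returned to normal medium for 4, 8, 12 or 24 h (RC4, RC8, RC12, RC24). Total RNA of these cells gave 10 libraries: 3 of NT, 3 of AS (replicates 1, 2 and 4) and 1 of each recovery time, all in replicate 4. For 8 further libraries, NT, AS and RC4 cells were cultured with 50 µM 4-thiouridine (4sU) for the last 1 h, and the RNA was split into a 4sU fraction, which holds newly made RNA, and the flow-through (Ft), which holds older RNA. NT had 2 RNA samples here, the second collected at the 4 h time, while AS and RC4 had 1 each. RNA bound to TIA1, an RNA-binding protein of stress granules, and its input came from cytoplasmic lysate of NT and AS cells, with 2 libraries per group. Cytoplasmic RNA of C2C12 came from proliferating myoblasts (MB) and differentiated myotubes (MT) with the same arsenite treatment (2 NT libraries, 1 AS and 1 RC4 in each), and total RNA came from untreated MB and MT (2 libraries each). Of the 2 cytoplasmic NT libraries of each state, the second was collected at the 4 h time. Both were used as 1 NT group, so their spread includes any difference between these times. The labels name the source as myoblast for MT also. They do not say whether replicates were separate cultures. The study calls replicates of total RNA, of TIA1-bound RNA and of MB and MT biological, and for the other sets the spread that p-values measure may be technical.

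Malat1 concentrates in nuclear speckles, where splicing factors gather, and Neat1 is the scaffold on which paraspeckle proteins assemble. Neat1 is made in a short form, which ends at a PAS with a poly(A) tail, and in a long form that runs past this PAS. The long form of Neat1 and the main form of Malat1 are not cut by the usual polyadenylation machinery. RNase P cuts them before a tRNA-like RNA, and a genome-encoded A-rich stretch at the new end folds into a triple helix. Neat1 is known to rise in several kinds of stress.

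In the mm9 genome (NCBIM37), Malat1 (ENSMUSG00000092341.1) spans chr19:5795690-5802671 on the minus strand, 6982 nt, and Neat1 (ENSMUSG00000092274.1) spans chr19:5824708-5845478 on the same strand, 20771 nt. Both are noncoding, so no PAS lies in a coding region or a UTR. Neat1 gave 78683 reads over all libraries and Malat1 4186. Each gene had 5 PASs with at least 1% of its reads. For Neat1 these lay 1735, 2004, 2185, 2908 and 3172 nt from the gene's start, and the last, the end of the short form at position 5842307, held 84.5% of the reads and was listed in 37 of 38 libraries. The annotated end of the long form, at position 5824708, held 0.789% (621 reads) and was listed in 19 libraries. For Malat1 the main PASs lay 2641, 4278, 4331, 6690 and 6982 nt from the start. The PAS at 4278 nt, inside the transcript, held 43.4% of the reads and the annotated end at 6982 nt held 23.0%. The remaining 66 sites of Malat1 held 20.7% of its reads and the remaining 121 of Neat1 held 5.92%, and 40 and 66 sites respectively were listed in 1 library only. The PAS of Malat1 at 2641 nt had 44 reads in 4 libraries, and 1 site, with 7 reads in 1 library, lay past the annotated end, 7782 nt from the start. No PAS was listed on the opposite strand of either gene.

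The RNase P-type ends are shown first because both genes share them. Each line gives the last 30 nt of RNA before the end, written 5′ to 3′ as DNA on the minus strand of mm9, and the capitals mark the stretch of 11 nt that both share. The positions are chr19:5795982-5796011 for Malat1, 6690 nt from its start, and chr19:5824708-5824737 for Neat1.
Malat1 A-rich end: ttccctagctttaaaaaaaAAAAAGCAAAA
Neat1 long end: gagaacgaacgtgagcaggAAAAAGCAAAA
The genome continues past these ends with the bases below, which share the 8 bases CTGGTGGC and are shown because the tRNA-like RNA is known to start there.
Malat1 next 20 nt: gacgctggtggctggcactc
Neat1 next 20 nt: ggcactggtggcggcacgcc
Of all 83916 PASs, 4 (0.00477%) ended in the shared 11 nt. 3′READS selects RNA with a poly(A) tail, so levels at these ends are not levels of all RNA cut there.

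The ends below follow a polyadenylation signal, marked in capitals, and are shown because they carry most of the reads of each gene. They lie at chr19:5842307-5842336, chr19:5798394-5798423, chr19:5798341-5798370 and chr19:5795690-5795719.
Neat1 short end: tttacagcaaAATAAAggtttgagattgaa
Malat1 internal PAS at 4278 nt: aattAATAAAatacttcactagagaatgta
Malat1 internal PAS at 4331 nt: atttaAATAAAgtcttgtttgttgtctgta
Malat1 annotated end: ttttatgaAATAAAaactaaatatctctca
The signal began 20, 26, 25 and 22 nt before these ends, in that order. Of the remaining main sites, the Neat1 PASs at 1735, 2004 and 2185 nt had no such signal within 45 nt, while that at 2908 nt and the Malat1 PAS at 2641 nt had one. AATAAA or ATTAAA stood within 45 nt upstream, on the transcript's strand, at 8 of 71 Malat1 PASs (11.3%) and 8 of 126 Neat1 PASs (6.35%), against 53.8% of all PASs. An A-rich window downstream, with at least 12 A in 20 nt, was found at 1 Malat1 PAS and no Neat1 PAS, and at 2.5% of all PASs. Most of the small sites therefore lacked both features. The 4sU library of RC4, with the most reads of both genes, also listed the most sites, 109 of Neat1 and 68 of Malat1, though other libraries were deeper.

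The depth of the 38 libraries ran from 1048335 to 6974664 reads with a median of 2874186, and mitochondrial PASs took 0.582 to 7.58% of reads. No file lists a PAS with fewer than 5 reads, which is 0.717 to 4.77 reads per 1000000 reads of a library (RPM) depending on the library, and such sites enter as 0. All 8 fibroblast markers of the list had reads in each NT total RNA library of NIH3T3, the lowest at 52.1 RPM (Pdgfrb). Of 6 myoblast markers, 4 had a PAS, with mean levels in MB total RNA of 126 RPM for Des and 9.40 RPM for Myod1, while Des, Myf5 and Myod1 were listed at 0 in NT total RNA of NIH3T3 and Cdh15 and Pax7 had no PAS. Vcam1 did not separate the lines, with means of 112 RPM in MB and 132 RPM in NT total RNA of NIH3T3. Of the 4 myoblast markers tested in MT against MB total RNA, 2 were higher in MT and 0 lower. The myoblast list therefore did not mark MB against MT. Of 9 myotube markers, 9 were higher in MT than in MB, where 32.3% of all genes were higher and 29.2% lower.

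Levels here count 3′ ends with a poly(A) tail, so they do not rank the genes by all of their RNA. On this scale, which does not depend on transcript length, Neat1 had more reads than Malat1 in every library. Its level was highest in the 4sU fraction at RC4 (8024 RPM), then in Ft at RC4 (4232 RPM), in 4sU of NT cells (1694 ± 33.8 RPM, SD, n = 2) and in MT total RNA (699 ± 11.2 RPM, n = 2). Next came Ft of NT cells (472 and 498 RPM) and total RNA of RC4 (474 RPM), which did not differ beyond their spread, and then 4sU of AS cells (430 RPM). The recovery libraries RC8 and RC12 had 344 and 268 RPM, and MB total RNA had 205 ± 22.2 RPM (n = 2). Total RNA of NT and AS in NIH3T3 spread too widely (171 ± 141 and 103 ± 107 RPM, n = 3 each) to be placed between Ft of AS (199 RPM), RC24 (141 RPM) and each other. The cytoplasmic, input and TIA1 libraries held 4.29 to 54.8 RPM and overlapped with each other and with the lowest total RNA libraries of NIH3T3 (28.3 to 42.9 RPM). Malat1 had another order. It was highest in the 4sU fractions, with 485 RPM in RC4, 129 RPM in AS and 70.4 and 84.3 RPM in NT. Below them lay Ft of RC4 (35.8 RPM), total RNA of MT (26.2 and 23.7 RPM) and of MB (12.9 and 10.4 RPM), and Ft of NT and AS (6.43 to 15.7 RPM). Total RNA of NIH3T3 spread over 2.39 to 51.6 RPM, and the cytoplasmic, input and TIA1 libraries over 0 to 18.4 RPM. Across the 38 libraries, log2(RPM + 1) of the 2 genes had a Pearson correlation of 0.737, given as a description because libraries of 1 fraction share their preparation.

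**Figure D1:**
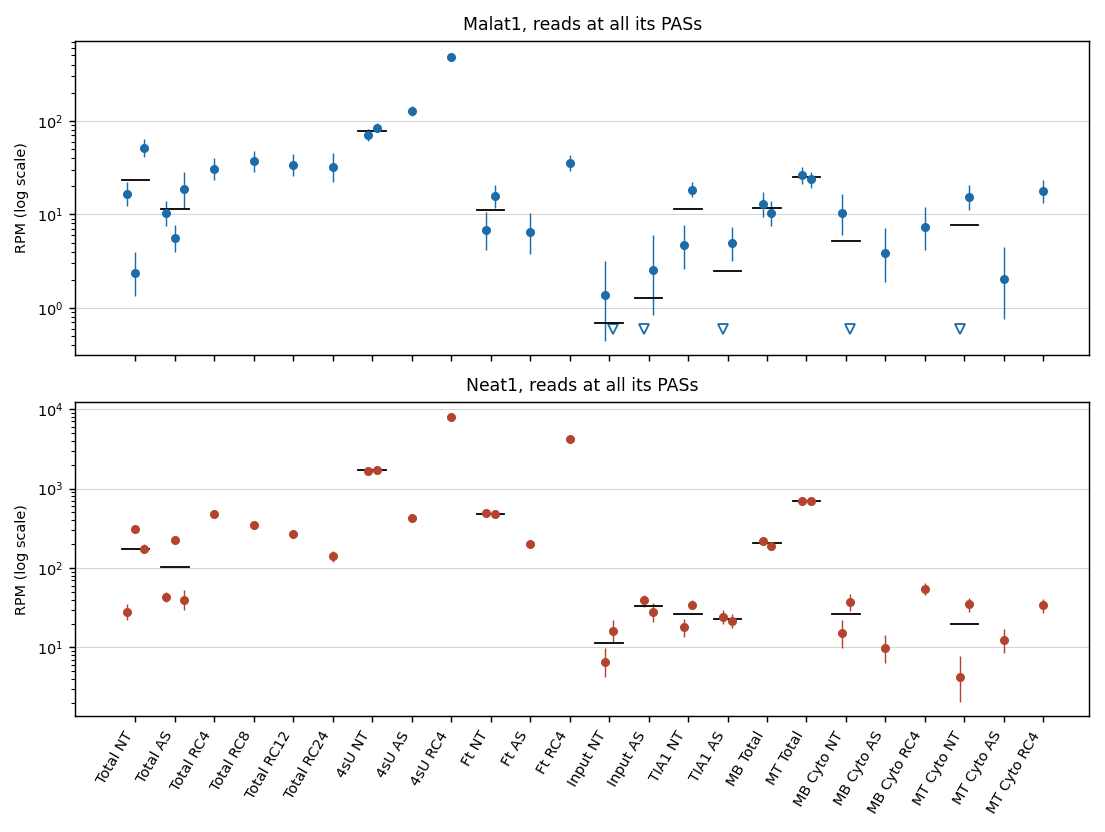
Level of each gene in RPM (log scale) by group of libraries. Points are libraries with exact Poisson 95% intervals, black bars are means of groups with at least 2 libraries, and open triangles mark libraries in which no PAS of the gene was listed. The 4sU libraries of RC4 stand highest for both genes, at 485 RPM for Malat1 and 8024 RPM for Neat1.

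The first comparison set newly made RNA against older RNA. Both genes were higher in the 4sU fraction, and in each of the 4 RNA samples the ratio of Malat1 was larger than that of Neat1. Malat1 was at 70.4 and 84.3 RPM in 4sU against 6.81 and 15.7 RPM in Ft for the 2 NT samples, at 129 against 6.43 RPM in AS and at 485 against 35.8 RPM in RC4. In all 4 RNA samples its 4sU level was the higher. Within samples the ratios were 10.3, 5.38, 20.0 and 13.6. Among genes with at least 10 reads in both fractions, the ratio ranked 30 of 8923 and 253 of 9458 in the NT samples, 1 of 8727 in AS, where Ft had 17 Malat1 reads, and 4 of 8898 in RC4. Over the 4 samples, Malat1 was higher in 4sU by 3.43 ± 0.27 on the log2 scale (SE; adjusted p = 8.3e-06, edgeR quasi-likelihood test with the RNA sample as a block, Benjamini-Hochberg over 10480 genes). Of those genes, 48.4% were called, 28.8% higher and 19.6% lower in 4sU.

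Neat1 was at 1670 and 1718 RPM in 4sU against 498 and 472 RPM in Ft of the NT samples, at 430 against 199 RPM in AS and at 8024 against 4232 RPM in RC4. Its 4sU level was also the higher in all 4 samples, with ratios of 3.36, 3.64, 2.16 and 1.90, where 17.1 to 25.1% of genes were at least 2-fold higher. In the same fit Neat1 was higher in 4sU by 1.41 ± 0.17 (adjusted p = 8.2e-05). By site, the short end was higher by 1.42 ± 0.18 (adjusted p = 0.00023) and the long end by 1.42 ± 0.28 (adjusted p = 0.0030) in edgeR's test over 22668 PASs, of which 35.8% were called and 23.6% were higher. Site usage, the change of a site relative to the rest of its gene, was called at none of the main sites of either gene, against 3.87% of 14073 sites in genes with several PASs. The Malat1 annotated end was higher in 4sU by 3.33 ± 0.38 (adjusted p = 0.00013) and its PAS at 4278 nt by 2.68 ± 0.28 (adjusted p = 9.1e-05). Without the RC4 sample, the long end of Neat1 was higher by 1.09 and no longer called (adjusted p = 0.13).

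Capture by 4sU depends on the number of uridines in a transcript. A regression of log2(4sU/Ft) on log2 of the uridine number over 7744 genes had a slope of 0.536. Malat1, with 2017 U, was at 3.47 before and 2.67 after adjustment for this slope. For Neat1 the adjusted value was 1.31 when the uridines of the short form (820 U) were used and -0.26 when those of the long form (6240 U) were used. The direction for Neat1 therefore rested on which form is counted, and 84.5% of its reads ended at the short form.

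The second comparison was AS against NT in total RNA of NIH3T3. For neither gene was the difference larger than the spread between replicates. Malat1 was at 16.6, 2.39 and 51.6 RPM in NT replicates 1, 2 and 4 and at 10.3, 5.59 and 18.7 RPM in the matching AS libraries. It was lower in AS in replicates 1 and 4 and higher in replicate 2, and the groups overlapped. Neat1 was at 28.3, 310 and 175 RPM in NT and at 42.9, 227 and 39.9 RPM in AS. It was higher in AS in replicate 1 and lower in replicates 2 and 4, and the groups overlapped here also. The log2 difference was -0.98 ± 1.00 for Malat1 and -0.73 ± 1.03 for Neat1 (adjusted p = 1.0 for both, edgeR quasi-likelihood test). No gene of 9457 was called (0.0%), 22 had an unadjusted p under 0.05, and DESeq2 called 0. With the replicate number as a block, edgeR called 6 genes and gave -0.41 ± 0.44 for Malat1 (adjusted p = 0.96) and -0.60 ± 0.41 for Neat1 (adjusted p = 0.94). The value of Neat1 was 0.17 without NT replicate 2 and -2.11 without AS replicate 2, and that of Malat1 was 0.28 without NT replicate 4. In these cell populations, fewer cells of a kind and less RNA per cell cannot be told apart.

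The recovery times came from replicate 4 alone, so they carry no test, and the intervals cover counting error only. Neat1 was lower in AS than in NT and higher in RC4, RC8 and RC12. It was at 175 RPM (95% exact Poisson interval 155 to 198) in NT, 39.9 RPM (29.3 to 53.0) in AS, 474 RPM (443 to 506) in RC4, 344 RPM (316 to 374) in RC8, 268 RPM (244 to 293) in RC12 and 141 RPM (119 to 166) in RC24. The AS level was 4.40-fold lower than NT (3.22 to 6.14), the fifth lowest ratio of 7305 genes, of which 2.85% were at least 2-fold lower. In RC4 it was 2.70-fold higher than NT (2.35 to 3.11), rank 200 of 7560 genes, of which 6.22% were at least 2-fold higher. RC24 lay below NT with overlapping intervals, and this overlap does not decide whether they differed beyond counting error. Malat1 in the same libraries was at 51.6, 18.7, 30.8, 37.1, 34.0 and 32.4 RPM, with all 5 treated libraries below NT. These rest on 77, 22, 58, 59, 60 and 34 reads, and whether each lay below NT beyond counting error was not tested. The A-rich end made up 22.1 RPM of the NT level and 6.90 to 15.3 RPM of the treated ones. The A-rich end of Malat1 was listed in NIH3T3 total RNA in these 6 libraries (6.90 to 22.1 RPM) and in none of replicates 1 and 2, so the Malat1 total of replicate 4 contains a site that the other replicates do not list.

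Newly made RNA showed the AS and RC4 states in 1 library each, beside 2 NT libraries that differed by 1.03-fold for Neat1 (0.990 to 1.07) and 1.2-fold for Malat1 (0.995 to 1.45). In AS cells Neat1 was at 430 RPM in 4sU against 1670 and 1718 RPM in NT. This was 3.95-fold lower than NT with its 2 libraries summed (3.70 to 4.23), rank 35 from the lowest of 9191 genes, of which 8.24% were at least 2-fold lower. Malat1 was above NT in the same library, at 129 RPM against 70.4 and 84.3 RPM, 1.63-fold higher (1.40 to 1.89), where 3.6% of genes were at least 2-fold higher. Its annotated end was at 33.2 RPM against 10.3 and 18.7 RPM, and its main PAS at 4278 nt was at 42.8 RPM against 26.7 and 40.7 RPM, a fold of 1.22 (0.945 to 1.56) whose interval includes 1.

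At RC4 both genes were far above NT in 4sU. Neat1 reached 8024 RPM, 4.72-fold higher (4.62 to 4.83), rank 124 of 9858 genes, and Malat1 reached 485 RPM, 6.14-fold higher (5.58 to 6.78), rank 72. Of those genes, 8.94% were at least 2-fold higher. The RC4 library listed many more small sites. With every site unlisted in NT given 4 reads, the folds were at least 4.42 for Neat1 and at least 3.32 for Malat1. The long end of Neat1 was at 7.56 and 10.4 RPM in NT, 3.69 RPM in AS and 71.8 RPM in RC4, 7.74-fold above NT (5.86 to 10.4), while the short end was 4.65-fold above. In Ft the order was the opposite: the long end was 5.17-fold above NT (3.18 to 8.67) and the short end 9.18-fold (8.80 to 9.57). The Malat1 PAS at 4278 nt went from 26.7 and 40.7 RPM in NT to 205 RPM, and the annotated end from 10.3 and 18.7 RPM to 102 RPM. Between the short and the long end of Neat1, 65 sites with 1044 reads (236 RPM) were listed in 4sU of RC4 against 22 reads (3.40 RPM) in NT, at least 2.88-fold higher.

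**Figure D2:**
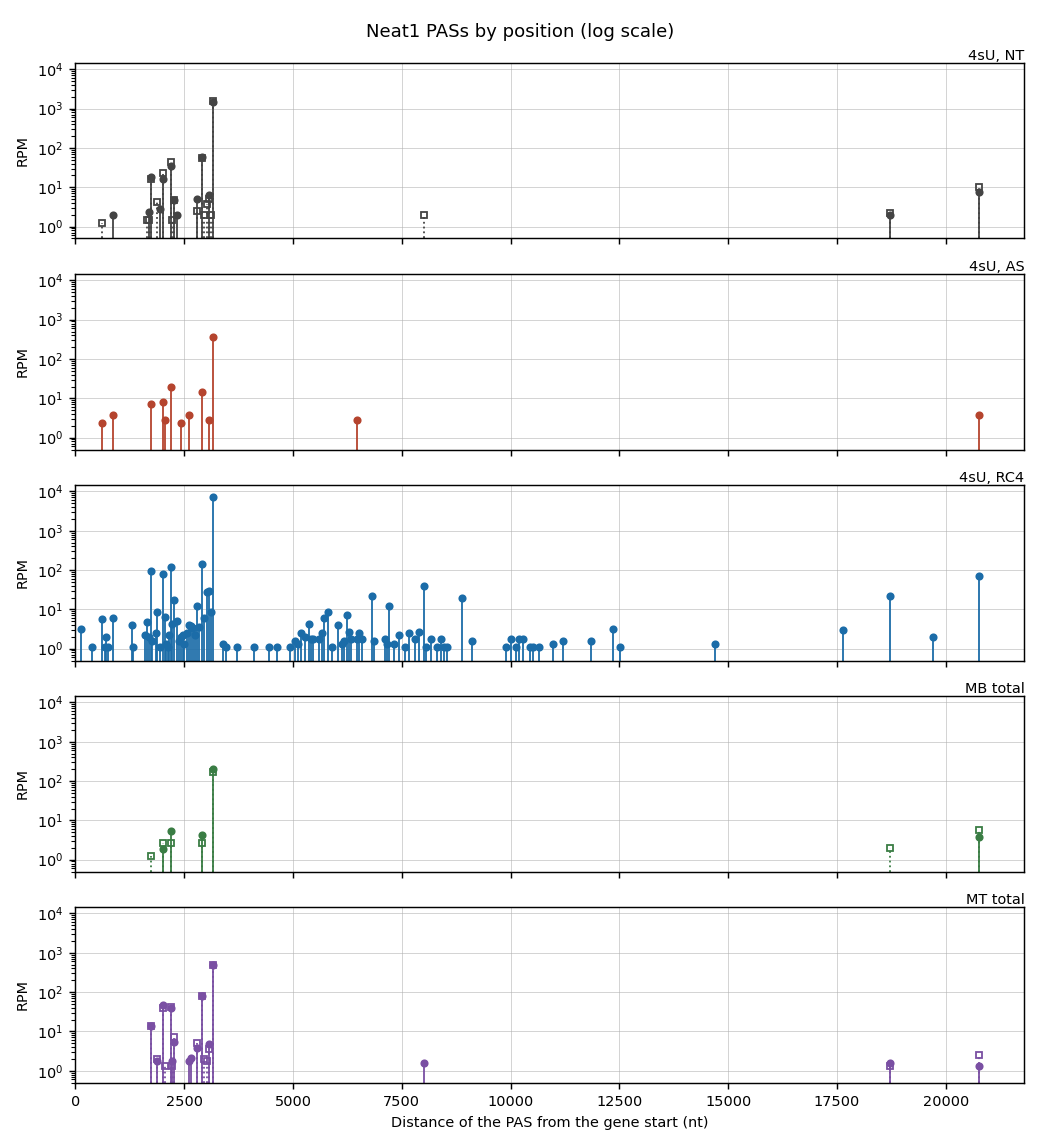
PASs of Neat1 by distance from the gene's start (nt) against their level in RPM (log scale), in 4sU of NT, AS and RC4 cells and in total RNA of MB and MT. Filled circles with solid lines are the first library and open squares with dotted lines the second. The short end at 3172 nt is the highest line in all 5 panels. More sites between the 2 ends are listed at RC4, the panel with the most Neat1 reads, and sites with fewer than 5 reads are not listed.

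In Ft, Neat1 was lowest in AS and highest in RC4, as in 4sU: 498 and 472 RPM in NT, 199 RPM in AS and 4232 RPM in RC4. AS was 2.44-fold lower than NT (2.22 to 2.68), where 2.53% of 9290 genes were at least 2-fold lower, and RC4 was 8.74-fold higher (8.40 to 9.10), rank 38 of 8806 genes, of which 8.71% were at least 2-fold higher. Malat1 in Ft was at 6.81 and 15.7 RPM in NT, 6.43 RPM in AS and 35.8 RPM in RC4. It was 3.11-fold higher in RC4 (2.29 to 4.24) and 1.79-fold lower in AS (1.04 to 3.24), an AS level close to that of the lower NT library.

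**Figure D3:**
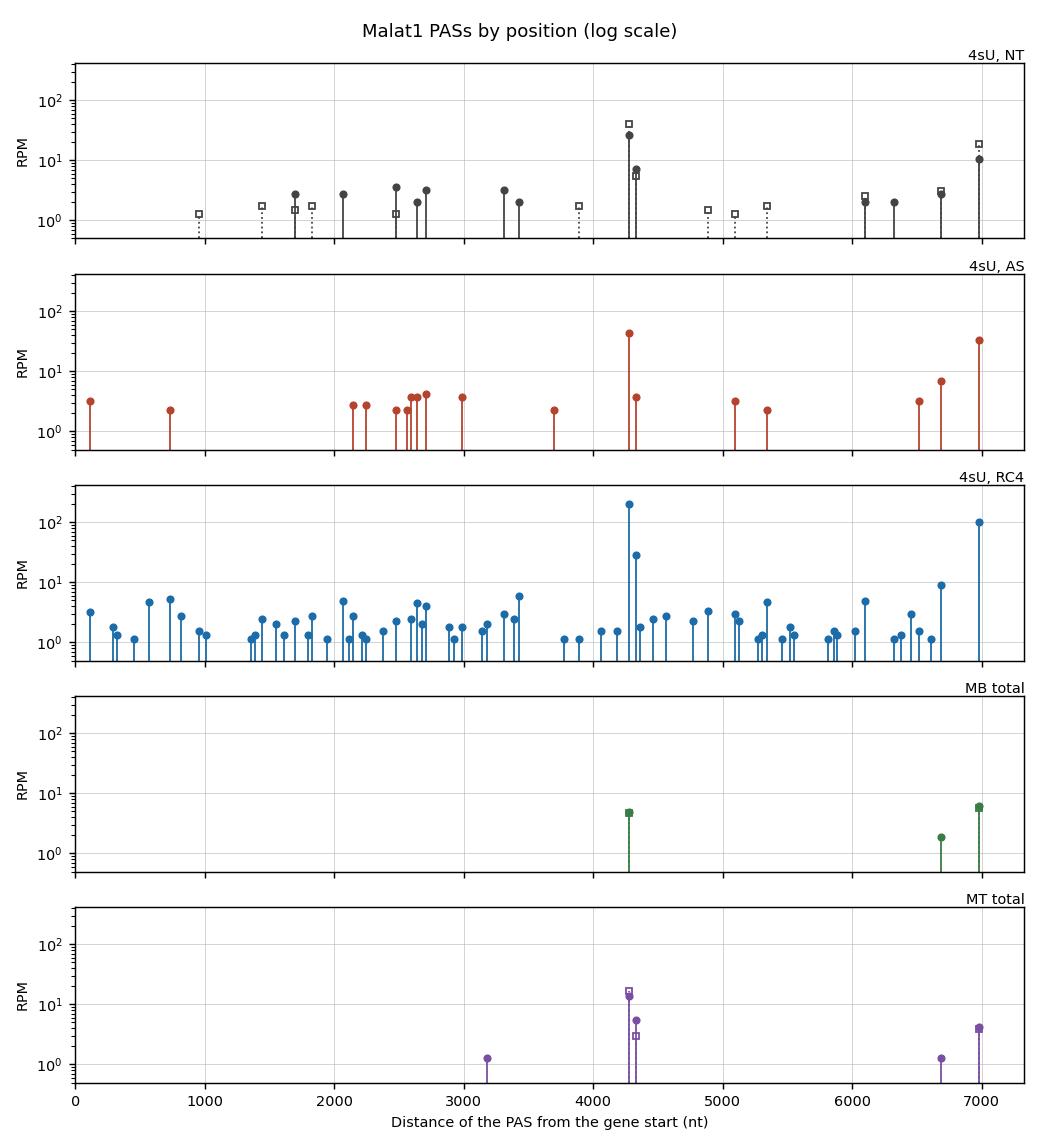
PASs of Malat1 by distance from the gene's start (nt) against their level in RPM (log scale), with the panels and symbols of the Neat1 plot. The internal PAS at 4278 nt is the highest site in the 3 panels of newly made RNA and in MT, and the annotated end at 6982 nt is slightly above it in MB.

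The third comparison was MT against MB in untreated C2C12. Both RNAs were higher in MT. Neat1 was at 707 and 691 RPM in MT and at 221 and 189 RPM in MB, and Malat1 was at 26.2 and 23.7 RPM in MT and at 12.9 and 10.4 RPM in MB. Neither gene's groups overlapped. The log2 differences were 1.94 ± 0.10 for Neat1 (adjusted p = 1.7e-10) and 1.28 ± 0.22 for Malat1 (adjusted p = 0.00011) in edgeR's quasi-likelihood test. Of 10388 genes, 61.4% were called, 32.3% higher and 29.2% lower, so a call by itself was common in this comparison. Other cell markers moved as well: of the 8 fibroblast markers, 4 were higher in MT (Col1a1, Col3a1, Fn1 and Col1a2, by 1.55 to 3.06), S100a4 and Vim were lower, and Thy1 was listed at 0 in MB and MT. Their part in the result was not tested.

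The PASs of Neat1 did not move alike. The short end was at 501 and 488 RPM in MT and at 206 and 172 RPM in MB, a log2 difference of 1.54 ± 0.11 (adjusted p = 1.3e-05, edgeR). The PAS at 2908 nt, upstream of it, was at 80.1 and 81.5 RPM in MT and at 4.32 and 2.71 RPM in MB, a difference of 4.70 ± 0.21 (adjusted p = 9.6e-07). Those at 2004 and 2185 nt rose by 4.34 ± 0.27 and 3.53 ± 0.26 (adjusted p = 5.3e-06 and 1.4e-05). The PAS at 1735 nt was at 14.0 and 13.3 RPM in MT, at 1.23 RPM in 1 MB library and unlisted in the other. The long end went the other way, with 1.30 and 2.48 RPM in MT and 3.70 and 5.67 RPM in MB, and its difference of -1.14 ± 0.49 was not called (adjusted p = 0.083). Of 19745 PASs, 49.4% were called and 26.4% were higher.

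In usage within the gene, the long end of Neat1 fell by 2.11 on the log2 scale (adjusted p = 0.00026) and the PASs at 2908, 2004, 1735 and 2185 nt rose by 1.93, 1.68, 1.73 and 1.13 (adjusted p = 5.7e-08, 1.1e-05, 0.0029 and 0.00046, edgeR's diffSpliceDGE with Benjamini-Hochberg). The long end rested on 5 and 11 reads in MT and 12 and 23 in MB, where 5 is the fewest a file lists. The PAS at 1735 nt had 54 and 59 reads in MT, 5 in 1 MB library and none listed in the other. It passed the count filter through MT alone, so its p-value is not taken as support. Of 11679 sites, 8.06% were called. The short end's usage differed by -0.25 (adjusted p = 0.066). Its share of the Neat1 reads was 93.2% (Wilson 95% interval 91.1 to 94.8) and 91.0% (88.8 to 92.8) in MB against 70.8% (69.1 to 72.5) and 70.6% (68.9 to 72.2) in MT. The groups did not overlap, and the exact two-sided permutation test of this share gave p = 0.333, the smallest that 2 against 2 libraries allow. For Malat1 the PAS at 4278 nt was at 14.0 and 16.9 RPM in MT and at 4.93 and 4.68 RPM in MB, a log2 difference of 1.84 ± 0.27 (adjusted p = 0.00062). The PAS at 4331 nt was listed in both MT libraries (5.45 and 2.94 RPM, 21 and 13 reads) and in neither MB library (adjusted p = 0.0017). It passed the count filter through MT alone, and MB entered as 0 where up to 4 reads may be unlisted. Its p-value is therefore not taken as support. The annotated end was at 4.15 and 3.84 RPM in MT and at 6.17 and 5.67 RPM in MB, a difference of -0.41 ± 0.34 (adjusted p = 0.34), and its usage fell by 1.18 (adjusted p = 0.0088).

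**Figure D4:**
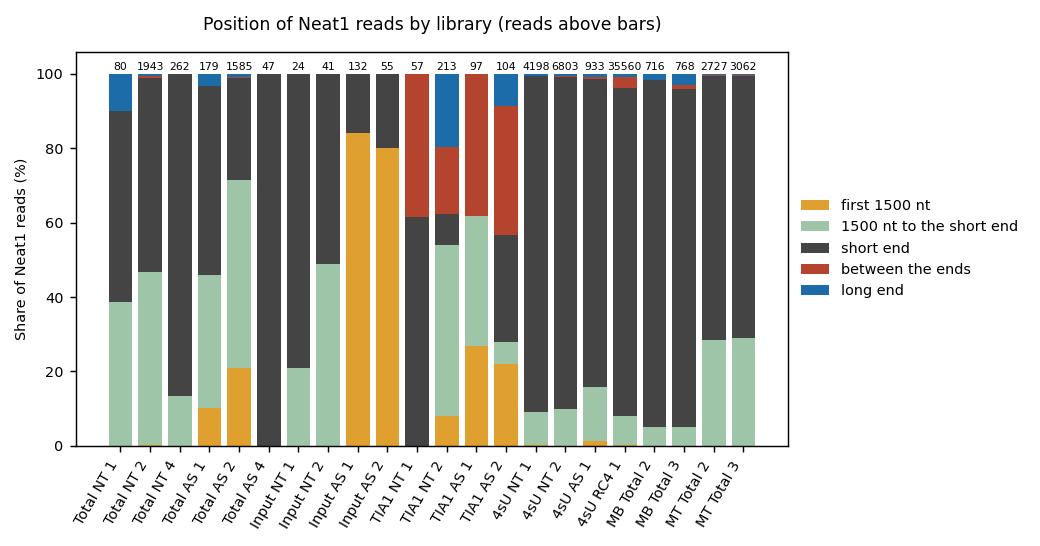
Share of the Neat1 reads (percent, 0 to 100) in each library that ended in the first 1500 nt, from there to the short end, at the short end, between the ends and at the long end, with the number of reads above each bar. MB total libraries hold 91.0 and 93.2% at the short end and MT total libraries 70.6 and 70.8%, and the input libraries of AS cells stand apart with 84.1 and 80.0% in the first 1500 nt.

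Cytoplasmic libraries held little Neat1, and Malat1 was low in both cytoplasmic and total RNA. In untreated C2C12, Neat1 was at 15.2 and 37.1 RPM in MB and at 4.29 and 34.8 RPM in MT cytoplasm, against 189 to 707 RPM in total RNA, without overlap. Its log2 difference, cytoplasmic against total with cell state as a covariate, was -3.87 ± 0.62 (adjusted p = 0.0015, edgeR), where 35.4% of 9979 genes were called and 18.6% were lower. The calls split into 1675 higher and 1857 lower genes, and into 1054 and 2707 when scaled by library totals. The short end was lower by 3.68 ± 0.58 (adjusted p = 0.0019), where 27.5% of 17748 PASs were called and 15.7% were lower, and the long end was listed in no cytoplasmic C2C12 library. Malat1 was at 10.3 and 0 RPM in MB and at 0 and 15.3 RPM in MT cytoplasm, against 10.4 to 26.2 RPM in total RNA. Within each cell state the cytoplasmic values lay below the total ones, by little for the higher MB value, and the difference of -1.26 ± 0.77 was not called (adjusted p = 0.23). The annotated end of Malat1 did not follow its gene total in MB. It was at 10.3 and 0 RPM in untreated MB cytoplasm against 6.17 and 5.67 RPM in total RNA. In MT these were 0 and 1.78 RPM against 4.15 and 3.84 RPM. At RC4 it was at 7.37 RPM in MB and 13.5 RPM in MT cytoplasm, with no total RNA of that time. Xist, a nuclear RNA from the fixed list of retained RNAs, was lower by 4.09 ± 0.75 (adjusted p = 0.0028). Cytoplasmic and total RNA came from separate experiments, so fraction and experiment cannot be told apart.

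The same contrast in untreated NIH3T3 set the input libraries (Neat1 6.59 and 16.2 RPM, Malat1 1.37 and 0 RPM) against total RNA (Neat1 28.3 to 310 RPM, Malat1 2.39 to 51.6 RPM). All input values lay below all total values for both genes. The log2 differences were -3.76 ± 1.12 for Neat1 and -4.69 ± 1.62 for Malat1 (adjusted p = 0.86 for both, edgeR). No gene of 9381 was called (0.0%), 511 had an unadjusted p under 0.05, and DESeq2 called 32, Neat1 among them at -3.76 (adjusted p = 0.044).

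Over all cytoplasmic C2C12 libraries, untreated ones included, neither gene passed the tests of cell state or treatment. MT against MB differed by -0.37 ± 0.52 for Neat1 and 0.46 ± 1.03 for Malat1 (adjusted p = 0.62 and 0.76, edgeR), where 37.1% of 9746 genes were called, 21.4% higher and 15.7% lower. In AS, Neat1 was at 9.77 RPM in MB and 12.3 RPM in MT, a log2 difference from NT of -1.08 ± 0.68 over both cell states (adjusted p = 0.60, 0.575% of genes called). In RC4 it was at 54.8 and 33.8 RPM, a difference of 1.17 ± 0.59 (adjusted p = 0.27, 8.63% called, 479 higher and 362 lower, or 303 and 584 when scaled by library totals). The MB cytoplasm libraries alone, with no replicate of AS or RC4, were 2.70-fold lower in AS and 2.08-fold higher in RC4 than NT for Neat1, where 2.36% of genes were at least 2-fold lower and 5.0% at least 2-fold higher. In MT cytoplasm Neat1 was 1.70-fold lower in AS and 1.61-fold higher in RC4 than the 2 NT libraries summed, with both levels inside their range. These NT libraries were at 4.29 RPM (0 h) and 34.8 RPM (4 h). Against the NT library of its own time, AS (12.3 RPM) lay above and RC4 (33.8 RPM) slightly below. In MB, with NT at 15.2 RPM (0 h) and 37.1 RPM (4 h), AS lay below and RC4 above. Malat1 was at 0 to 10.3 RPM in MB and at 0 to 17.8 RPM in MT cytoplasm, with log2 differences of -1.11 ± 1.35 in AS and 1.14 ± 1.15 in RC4 (adjusted p = 0.83 and 0.62).

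**Figure D5:**
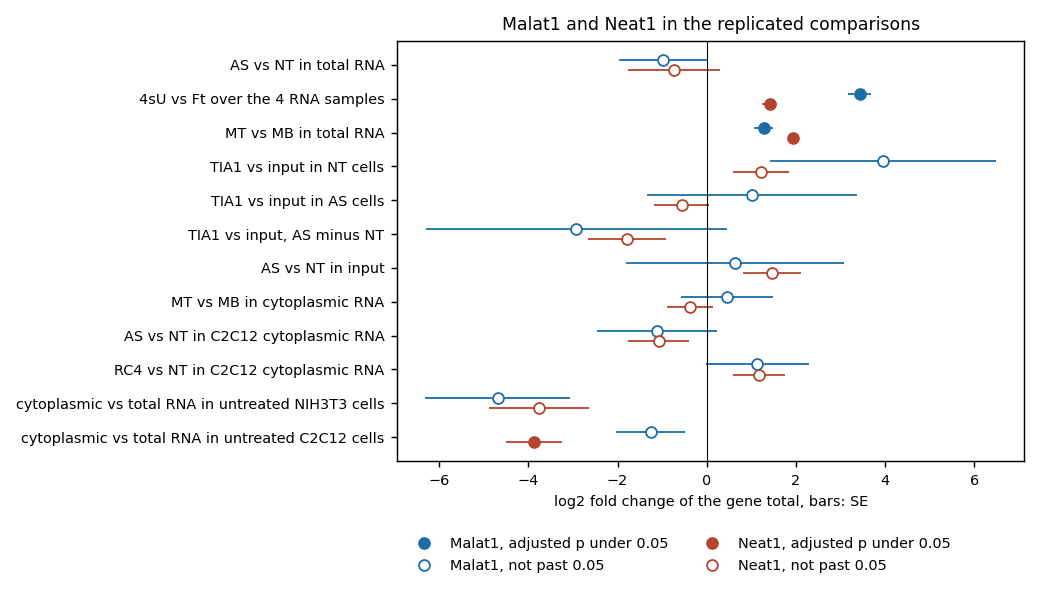
Log2 difference of the gene total with its SE for Malat1 and Neat1 in the 12 comparisons with replicates. The total RNA, input and TIA1 values come from fits without a replicate block. Filled points have an adjusted p under 0.05: both genes in 4sU against Ft (3.43 and 1.41) and in MT against MB total RNA (1.28 and 1.94), and Neat1 in C2C12 cytoplasmic against total RNA (-3.87).

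Neither gene passed the test of TIA1-bound RNA against its input. In NT cells Malat1 was at 4.70 and 18.4 RPM in TIA1 against 1.37 and 0 RPM in input, a log2 difference of 3.95 ± 2.54 (adjusted p = 0.40, edgeR). Both TIA1 libraries lay above both inputs, and 2.87% of 9914 genes were called. Neat1 was at 17.9 and 34.7 RPM against 6.59 and 16.2 RPM, a difference of 1.22 ± 0.62 (adjusted p = 0.30), again without overlap. In AS cells Malat1 was at 0 and 4.96 RPM in TIA1 against 0 and 2.56 RPM in input (1.03 ± 2.36, adjusted p = 0.87), and Neat1 was at 24.1 and 21.5 RPM against 39.1 and 28.1 RPM (-0.56 ± 0.61, adjusted p = 0.67), where 1.22% were called. The AS minus NT difference of Neat1 was -1.78 ± 0.87 (unadjusted p = 0.072, adjusted p = 1.0). For that difference 0 of 9914 genes were called (0.0%), 223 had an unadjusted p under 0.05 and DESeq2 called 5. The study took input and TIA1-bound RNA from the same lysate. With the replicate number as a block, edgeR called 1879 genes in NT in place of 285 and 1740 in AS in place of 121. The paired difference of Neat1 was 1.26 ± 0.52 in NT (adjusted p = 0.11) and -0.54 ± 0.50 in AS (adjusted p = 0.54), and that of Malat1 was 4.03 ± 2.89 and 0.85 ± 2.86 (adjusted p = 0.40 and 0.90).

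In the input itself, Neat1 was at 39.1 and 28.1 RPM in AS and at 6.59 and 16.2 RPM in NT. Both AS libraries lay above both NT libraries, and the log2 difference was 1.47 ± 0.65 (unadjusted p = 0.050, adjusted p = 1.0, edgeR, 0.0101% of genes called). The reads ended at different places. In AS, 84.1% (Wilson 95% interval 76.9 to 89.4) and 80.0% (67.6 to 88.4) of the Neat1 reads ended in the first 1500 nt, a window chosen after the values were seen, and in NT 0 of 24 and 0 of 41 reads did. The site at 608 nt alone had 31 and 21 reads in the AS inputs, and that at 375 nt had 23 and 12 reads. Neither was listed in an NT input. The short end was at 6.22 and 5.62 RPM in AS and at 5.22 and 8.32 RPM in NT, and these overlapped. The sum of the window was at least 2.49-fold higher in AS with unlisted sites given 4 reads.

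The same first 1500 nt held 10.1% and 20.95% of Neat1 reads in AS total RNA of replicates 1 and 2 against 0% and 0.26% in the matching NT libraries, but none in AS of replicate 4, which had 47 Neat1 reads. In replicate 2 this was 332 reads at 17 sites (47.6 RPM), and the short end went from 161 RPM in NT to 62.1 RPM. In 4sU the window was at 1.26 and 1.99 RPM in NT, 5.99 RPM in AS and 25.5 RPM in RC4, and in MB cytoplasm it was listed in AS only (1.95 RPM). In Ft it was at 2.38 and 0 RPM in NT, 0 RPM in AS and 6.83 RPM in RC4, and MT cytoplasm listed no site in it. It held no listed site in total RNA of MB and MT. For the short end's share, the exact two-sided permutation test gave p = 0.8 for AS against NT total RNA (smallest possible 0.1) and p = 0.333 for input (the smallest possible). None of the 18 sites in the window had AATAAA or ATTAAA within 45 nt.

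Between the ends of Neat1, TIA1 libraries listed sites that no input library listed. They held 38.6% and 17.8% of Neat1 reads in NT and 38.1% and 34.6% in AS. The PAS at 5518 nt had 22 reads in TIA1 of NT replicate 1 and 18 in AS replicate 1. The long end had 42 reads (6.84 RPM) in NT replicate 2 and 9 (1.86 RPM) in AS replicate 2 and was in no input library. The inputs had 24 to 132 Neat1 reads in all.

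Genes that work with the 2 RNAs were read from lists fixed with the comparisons. The paraspeckle list held 28 genes. In MT against MB total RNA, 3 of 28 were higher and 17 lower (edgeR, adjusted p under 0.05), against 32.3% and 29.2% of all genes, with a median log2 difference of -0.57 against 0.03 over all genes, opposite in direction to Neat1. The lower members included the core paraspeckle proteins Pspc1 (-1.11), Sfpq (-1.01) and Nono (-0.52), with Hnrnpa1 (-2.13 ± 0.15), Nudt21 (-1.81 ± 0.44) and Rbm14 (-1.67 ± 0.10) lowest. Taf15 (1.50 ± 0.10), Cirbp (1.03 ± 0.12) and Hnrnph3 (0.48 ± 0.16) were higher. In MT against MB cytoplasm, 1 of 25 was higher and 10 lower, against 21.4% and 15.7% of all genes. In 4sU against Ft, 12 of 28 were higher and 7 lower, against 28.8% and 19.6% of all genes, with a median of 0.28 against 0.18 over all genes. Zc3h6 (3.71 ± 0.86) and Ss18l1 (2.34 ± 0.22) were highest, and Nudt21 (-3.99 ± 1.43) and Nono (-1.22 ± 0.16) lowest.

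The nuclear speckle list, of splicing factors and Malat1 partners, held 17 genes. In MT against MB total RNA, 0 were higher and 13 lower, against 32.3% and 29.2% of all genes, with a median of -0.80, also opposite to Malat1. Srsf2 (-1.63), U2af2 (-1.57) and Ptbp1 (-1.45), which act in splicing, were lowest. In 4sU against Ft, 9 were higher and 2 lower, against 28.8% and 19.6% of all genes, with a median of 0.64. Among them were Pnn (1.11) and Son (1.00), which organise speckles, and Mettl16 (0.92), which binds the Malat1 triple helix. RNase P and tRNase Z genes, whose products cut at and after the A-rich ends, had 0 higher and 3 lower of 7 in MT against MB (Pop1 -2.37, Pop5 -0.80, Rpp30 -0.56) and 0 higher and 2 lower in 4sU against Ft (Pop5 -1.01, Rpp30 -0.52). The lower counts are near the shares over all genes, 29.2% and 19.6%.

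Of 13 other nuclear-retained RNAs, 4 passed the filter in 4sU against Ft and 3 were higher, where 28.8% of all genes were higher. The 3 were the imprinted RNAs Airn (2.60 ± 0.55), Meg3 (1.31 ± 0.16) and Mirg (1.03 ± 0.15). Malat1 at 3.43 lay above all of them, and Neat1 at 1.41 lay among them. At RC4 in 4sU, Airn and Rian were above NT by 2.43 and 1.17 on the log2 scale, and in AS Meg3 was below it by 1.84. In MT against MB only Xist passed the filter, and it was higher (0.68 ± 0.11). Spliced long noncoding RNAs and snoRNA hosts leave the nucleus or are decayed after splicing. In 4sU against Ft they had 1 of 4 higher (Snhg5, 0.82) and 0 lower, against 28.8% and 19.6% of all genes. In MT against MB they had 2 higher and 3 lower of 5, against 32.3% and 29.2% of all genes. H19 (5.70 ± 0.13) and Snhg12 were higher, and Snhg1 (-3.77), Gas5 (-3.15) and Snhg5 lower.

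The genes whose level was most like that of Malat1 over the 38 libraries, by Pearson's correlation of log2(RPM + 1) among 4893 genes with at least 10 reads in each library, were Rlim (0.864), Mast4 (0.854), Rlf (0.816), A830080D01Rik (0.816) and Ireb2 (0.807). Those most like Neat1 were Ttc28 (0.792), Rbm25 (0.787), Rbbp6 (0.777), Hnrnpa2b1 (0.769) and Ubr2 (0.765). After each library was centred on the mean of its experiment, the values were 0.642 to 0.726 for the Malat1 set and 0.084 to 0.531 for the Neat1 set, so part of the likeness, and most of it for Rbbp6, was shared by whole experiments. These correlations are descriptions over libraries that share cell line, fraction and experiment.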

How the data were processed

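The authors trimmed reads, mapped them to mm9 and deposited raw counts of reads per PAS. The submitters' processing notes name cutadapt, Bowtie2 and STAR. The deposited RNA-seq counts (4 libraries, 17137579 to 25194062 reads) had 0 rows for Malat1 or Neat1 and were used for nothing else. PAS positions (99725) within 24 nt were joined across libraries into clusters and assigned to NCBIM37 gene spans on the same strand, 72.5% of clusters in genes, with 956 ambiguous clusters left out. Malat1 and Neat1, the lists and the tests were chosen with earlier results of these data known.

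Fits ran on all features with Python 3.11.15, R 4.3.3 and edgeR 4.0.16 (filterByExpr, minimum count 10; glmQLFit and glmQLFTest, two-sided; Benjamini-Hochberg; threshold 0.05), with DESeq2 1.42.0 as the alternative and pandas 2.3.3, numpy 2.4.6 and scipy 1.17.1 for the rest. Scripts were tested on simulated data with 200 changed genes. Size factors were median ratios, or library totals for 4sU against Ft and TIA1 against input. Site usage was planned for AS against NT total RNA and added for other comparisons after the data were seen. Single libraries were compared by RPM with exact 95% intervals for counting error, and ranks used genes with at least 10 reads in both. Sites unlisted in 1 library were also bounded at 4 reads. Depth limits precision: the smallest libraries had 1048335 reads.

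Values are given in full for each PAS that held 1% or more of the gene total. The long end comes with the choice of members, and other sites in the first 1500 nt or between the ends were named after their values were seen. From each list, up to 3 called members per direction with the largest change are named, with Pspc1, Sfpq and Nono added after their values were seen. Replicate numbers paired AS and NT total RNA: same-numbered libraries deviated together from their group means (correlations 0.905, 0.919 and 0.911 over 6807 genes), with the pairing taken from the labels' numbers. The RNA sample paired 4sU with Ft by design, and the main fit used this block. Same-numbered input and TIA1 libraries are paired because the study drew both from 1 lysate. The main fits of total RNA, of input and of TIA1 against input nevertheless left replicate numbers out. Fits with the replicate block are the alternatives given beside them. No 2 libraries of a group agreed within sampling noise.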

Additional observations from a re-analysis of the deposited data

Results flagged for a closer look

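Several responses went in opposite directions at AS and at RC4, or in the 2 fractions, in groups with 1 library each, and the difference was not tested in any of them. Each value is the first log2 change from NT minus the second. For Neat1, AS minus RC4 was -4.22 in 4sU, -4.41 in Ft and -2.49 in MB cytoplasm, with the AS library below NT and the RC4 library above it each time. For Malat1 in Ft, AS minus RC4 was -2.48. Malat1 in AS cells was above NT in 4sU and below the summed NT libraries in Ft, a difference of 1.54, where the Ft library of AS had 17 Malat1 reads. That library (6.43 RPM) lay close to the Ft library of NT at 0 h (6.81 RPM, 20 reads). Its direction in Ft therefore rested on the NT library of the 4 h time (15.7 RPM).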

How the results depend on the processing

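Under the alternatives, 351 values of the main comparisons kept their direction and their side of the threshold and 4 did not. Neat1 in 4sU against Ft, called with the RNA sample as a block, was 1.13 and not called with no replicate block (adjusted p = 0.43, edgeR), as were its main PASs and the long end, and calls fell from 5077 to 2923 genes. Neat1 in NIH3T3 cytoplasmic against total RNA was called by DESeq2 only (-3.76, adjusted p = 0.044, 32 genes against 0). Adjusted for uridines of the longest transcript, Malat1 was 2.67 and Neat1 -0.26. With PASs of at least 1% of the reads only, the difference of the short end's share, AS minus NT, turned to 4.12 percentage points in total RNA and 34.8 in input. Leaving out 1 library gave 3.22 to 3.80 for Malat1 and 1.26 to 1.58 for Neat1 in 4sU against Ft, and 1.10 to 1.42 and 1.82 to 2.05 in MT against MB total RNA. In AS against NT total RNA the ranges were -1.51 to 0.28 and -2.11 to 0.17. The Malat1 PAS at 4331 nt lost its 4sU call without RC4 (adjusted p = 0.12), and the long end of Neat1 was called lower in MT without MB replicate 2 (-1.42, adjusted p = 0.049). The cause was not tested for any of these.

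Counts of called genes moved most for the small comparisons. TIA1 against input in NT called 285 genes, 1128 with no filter on low counts, 1245 by DESeq2, 1879 with a replicate block and 0 to 219 without 1 library. In AS it called 121, and 959, 1093, 1740 and 0 to 378 in the same order, or 0 with a common floor of RPM. AS minus NT called 0, 10, 5 and 4, and AS against NT input 1, 27, 20 and 17. AS against NT in C2C12 cytoplasm called 56, 218 by DESeq2, 36 with the common floor and 5 to 66 without 1 library, and RC4 called 841, or 302 to 840. MT against MB cytoplasm called 3619, or 2322 in NT libraries only. Joining PASs within 50 nt left 81 Neat1 sites.

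With the replicate block, Neat1 differed by 1.59 in AS against NT input (adjusted p = 1, edgeR). Deviations of same-numbered libraries correlated by 0.486 and 0.517 in TIA1 and input, by 0.685 in AS and NT input and by 0.079 in MT and MB. For the last 2 of these, the labels give a shared number and do not say how the libraries are related. Added to the total RNA, TIA1 and input comparisons, the replicate block changed no call of Malat1 or Neat1. In newly made against older RNA, the call of Neat1 did depend on the block of RNA samples, as given above. Scaling by library totals moved the median log2 difference of all genes from 0.035 to -0.135 in MT against MB total RNA and from -0.10 to -0.32 in C2C12 cytoplasmic against total RNA. Few reads were a limit for Malat1, which had 0 to 113 reads in each cytoplasmic, input or TIA1 library.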
